A study of Mus musculus with 12 samples.

Results

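Mouse embryonic fibroblasts carrying NRF2 with the missense change D29H were compared with fibroblasts in which both Nrf2 and its inhibitor Keap1 worked as in wild type. The comparison used 6 of the 12 RNA libraries of the study, 3 labelled Nrf2 D29H and 3 labelled Keap1 wild type, and the 20844 genes listed in both deposited count tables. It asks how far the transcript output of the mutant NRF2 exceeds that of normal NRF2. The D29H cells were homozygous LSL-Nrf2D29H fibroblasts given adenovirus with Cre recombinase, which switches the mutant allele on. The wild-type cells were homozygous CA-Keap1R554Q fibroblasts given empty adenovirus, in which the mutant Keap1 allele is not induced. Levels are also given for the other 2 groups: the same Nrf2 cells with empty virus, labelled Nrf2 knockout because the allele is functionally off without Cre, and the same Keap1 cells with Cre virus, labelled Keap1 R554Q. All groups came from embryos of day 13.5 to 14.5, grew in pyruvate-free DMEM with 10% serum, received virus at a multiplicity of 500 and were collected 4 days later. The labels give no mouse strain and do not say whether the 3 libraries of a group came from separate embryos or cultures, so p-values measure the spread between these libraries only, which may be technical. Culture, Nrf2 allele, Keap1 allele, Cre virus and deposited table all change together between D29H and wild type, so their parts in any difference below cannot be told apart. No group with normal Nrf2, normal Keap1 and Cre virus was analysed here.

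NRF2 (gene symbol Nfe2l2) is a transcription factor that pairs with small MAF proteins on antioxidant response elements and turns on genes for glutathione synthesis, detoxification, iron handling and NADPH supply. In unstressed cells KEAP1 binds NRF2 near its amino terminus and, with the CUL3 ubiquitin ligase, sends it for degradation. Changes in that amino-terminal region, such as D29H, and changes in KEAP1, such as R554Q, are found in tumours with high NRF2 activity.

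The 6 libraries held 19661193 to 21832061 counted reads. Mitochondrial genes took 0.982% to 1.77% of the reads of the D29H libraries and 0.807% to 1.09% of those of wild type. All 12 fibroblast markers passed the filter on low counts, and the main collagen transcript Col1a1 had at least 135901 reads in every library. Of the 12 markers 7 were higher (58.3%) and 3 lower (25%) in D29H, against 17.7% and 18.3% of all genes tested. The labelled cell type's markers were thus present in both groups, while most of them differed in level. All levels are in CPM, read counts divided by library size with scaling over the 12 libraries, given as mean ± SD with n = 3 libraries or per library in the order of replicates 1 to 3. Levels are not per gene length and are compared between libraries, not between genes.

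Transcript of the targeted gene itself was read in every group. Nfe2l2 (ENSMUSG00000015839, GRCm38 chr2:75675513-75704641, minus strand) stood at 49.6, 56.6 and 52.2 CPM in the D29H libraries and at 42.8, 44.3 and 41.9 CPM in wild type, and these ranges did not overlap. The log2 fold change of D29H over wild type was 0.30 ± 0.09 (SE) with an adjusted p of 0.0117. This call was lost without wild-type replicate 3, where the adjusted p was 0.0572. The libraries labelled Nrf2 knockout held 46.4, 40.7 and 41 CPM, so the gene's counts do not separate this label from wild type; the counts cannot show whether functional protein was made. Keap1 (ENSMUSG00000003308, chr9:21229730-21239332, minus strand) stood at 45.6 ± 5.71 CPM in D29H and 46.5 ± 4.32 CPM in wild type, with a log2 fold change of -0.03 (95% confidence interval -0.24 to 0.18). The direction for Keap1 turned without D29H replicate 2 or without wild-type replicate 3.

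The NRF2 partners and relatives moved in both directions. Mafg, a small MAF partner, rose by 0.40 ± 0.10 on the log2 scale (adjusted p = 0.00298), although the gene overlaps Sirt7 and shared reads cannot be separated. Bach1, a repressor that competes for the same elements, rose by 0.25 ± 0.08 (adjusted p = 0.0219), a call that was lost without D29H replicate 3 (0.059) and without wild-type replicate 1 (0.0507), 2 (0.081) or 3 (0.0768). Mafk fell by 0.41 ± 0.09, Maff fell by 0.43 ± 0.09 and Nfe2l1, the gene of the related factor NRF1, fell by 0.44 ± 0.09. The level of Nfe2l1 was 268 ± 10.9 CPM in D29H and 365 ± 6.81 CPM in wild type, and 283 ± 8.07 CPM in labelled knockout and 348 ± 7.3 CPM in R554Q, so the cultures with the Nrf2 allele were low with either virus. The mean levels of Mafk and Maff were likewise lower in both groups from Nrf2 cells than in both from Keap1 cells. Cul3, the ligase scaffold, fell by 0.32 ± 0.09 (adjusted p = 0.00949), and its call was lost without D29H replicate 3 (0.0647), without wild-type replicate 2 (0.0818) and with all 12 libraries in 1 fit (0.0524).

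The element that NRF2 binds can be seen in the promoters of some of the genes described below. The windows show the match to the core of the antioxidant response element, TGACNNNGC, with up to 30 bases on each side, for 3 genes that were higher in D29H (Gclm, Mgst1, Txnrd1) and 2 that did not pass the test (Prdx1, G6pdx). They are RefSeq sequences of GRCm38.p6 on the gene's own strand, 5′ to 3′, from the stretch of 250 bases before to 50 after the start, and capitals mark the core, which in these 5 lies on the opposite strand and so reads as GCNNNGTCA.
Gclm, chr3:122245393-122245461, plus strand: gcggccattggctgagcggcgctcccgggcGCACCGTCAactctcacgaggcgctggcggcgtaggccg
Mgst1, chr6:138140441-138140509, plus strand: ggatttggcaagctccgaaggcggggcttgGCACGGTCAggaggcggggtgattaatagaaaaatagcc
Txnrd1, chr10:82859084-82859152, plus strand: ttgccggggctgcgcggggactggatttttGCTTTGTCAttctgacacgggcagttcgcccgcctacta
Prdx1, chr4:116685436-116685504, plus strand: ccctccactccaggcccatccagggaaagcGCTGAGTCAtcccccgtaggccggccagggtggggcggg
G6pdx, chrX:74428899-74428967, minus strand: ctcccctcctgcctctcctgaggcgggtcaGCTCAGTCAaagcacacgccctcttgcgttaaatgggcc
On either strand the core occurred in 17 of the 59 tested NRF2 target genes that had a promoter in the table (28.8%), against 17.0% of the 10229 tested genes and 13.99% of all 27025 genes with a promoter. Among the targets it was present in 8 of 25 that were higher in D29H, 3 of 9 that were lower and 6 of 25 that did not pass. A match is a string of letters and not a shown binding site, and NRF2 elements farther from the start lie outside these windows.

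Across all 14335 genes that passed the filter, 2542 were higher in D29H (17.7%) and 2630 were lower (18.3%) at a Benjamini-Hochberg adjusted p under 0.05 in edgeR's quasi-likelihood test, the source of the adjusted p-values given here. At least 2-fold changes among them were fewer, 511 higher (3.56%) and 256 lower (1.79%). With any 1 library removed, the number higher lay between 1873 and 3069 and the number lower between 1802 and 3363. Both lowest counts came without D29H replicate 3 and both highest without D29H replicate 1. Every count of a gene list below is to be read against a background in which 36.1% of genes were called. Where a list is said to have no member called in a direction in D29H against wild type, DESeq2 and limma also called none, and an unadjusted p under 0.05 in edgeR was met by none except 1 member of the heme and iron list. In the other 2 comparisons a list with none called in a direction likewise had none by DESeq2, limma or the unadjusted p, except where a number is given beside it.

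The list of NRF2 target genes held 82 members, of which 78 were in both tables and 71 passed the filter on low counts. Of these 71, 30 were higher in D29H than in wild type (42.3%), 11 were lower (15.5%) and 30 did not pass the test. Their median log2 fold change was 0.17, against -0.01 over all genes tested, and stood at 0.08 without D29H replicate 1. Only 9 members were at least 2-fold higher and none was at least 2-fold lower in this test, and 1 of the 9, Gsta1, had very few reads in wild type. The 11 members without a test were Gstm3, Cyp2a5, Gpx2 and Trim16l, which were not in both tables, and 7 with few reads: Ggt1, Gsta2, Gsta3, Aldh3a1, Ugt1a6a, Abcc2 and Panx2. Of these 7, Gsta3 had 32 reads over the 3 D29H libraries and 8 over wild type, Aldh3a1 had 29 and 4, and Ugt1a6a had 13 and 0.

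The comparisons that share libraries with this one give the same members a different balance. D29H against labelled knockout, where both groups came from Nrf2 cells and virus and Nrf2 allele state differ, had 36 of 71 members higher and 2 lower, with 3.32% and 1.53% of 14380 genes called in those directions, and a median of 0.43. Labelled knockout against wild type, where both had empty virus and the culture, Nrf2 allele, Keap1 allele and deposited table differ, had 6 of 70 higher and 35 lower, with 11.4% and 11.7% of 14114 genes called, and a median of -0.29. The summed level of the 78 members in both tables was 13206 to 14796 CPM in D29H, 13396 to 13973 CPM in wild type, 8740 to 9832 CPM in labelled knockout and 20465 to 21954 CPM in R554Q. The sums of D29H and wild type overlapped, and much of each sum was the ferritin light chain transcript Ftl1.

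**Figure D1:**
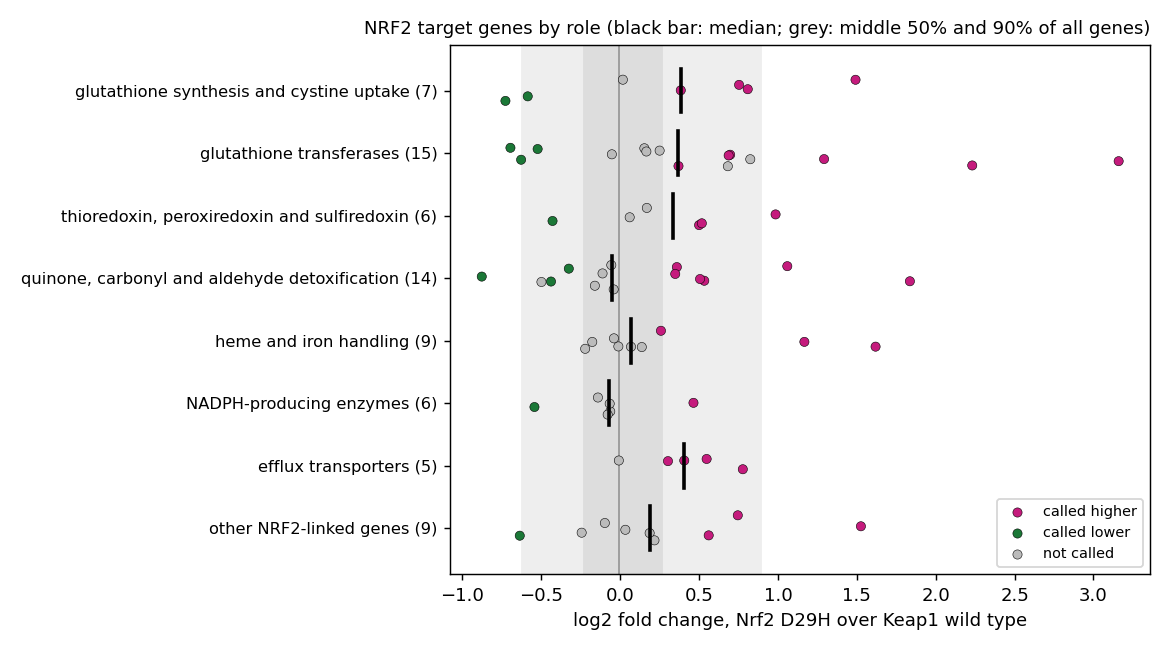
Each point is an NRF2 target gene, placed by its log2 fold change of Nrf2 D29H over Keap1 wild type (x axis) in the row of its role, with the number tested in brackets; colour shows the call at an adjusted p under 0.05. The 9 genes at or beyond 1 on the log2 scale lie in 5 of the 8 roles, and no gene lies at or below -1.

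Glutathione synthesis draws on cystine imported by Slc7a11 and reduced to cysteine. Glutamate-cysteine ligase (catalytic subunit Gclc, modifier Gclm) joins cysteine to glutamate. These supply genes were higher in D29H, while of all 7 tested members of the list 4 were higher, 2 lower and 1 did not pass. Slc7a11 (ENSMUSG00000027737, chr3:50364936-50443613, minus strand) stood at 9.84, 10.7 and 9.86 CPM in D29H, at 2.84, 4.07 and 3.92 CPM in wild type, at 5.06, 4.89 and 10.2 CPM in labelled knockout and at 16.7, 16.1 and 21.7 CPM in R554Q. Every D29H library was above every wild-type library, but knockout replicate 3 reached the D29H level. The log2 fold change over wild type was 1.49 ± 0.16 with an adjusted p of 3e-07. Slc7a11 was also higher in labelled knockout than in wild type, by 0.85 (adjusted p = 0.0189), so for this transporter the labelled knockout libraries did not lie below wild type. Culture, Keap1 allele and deposited table also differ there, and that comparison was not run without knockout replicate 3.

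Gclc (ENSMUSG00000032350, chr9:77754535-77794485, plus strand) stood at 43.8, 46.1 and 44.3 CPM in D29H and at 24.8, 24.8 and 27 CPM in wild type, a fold of 1.75 (log2 fold change 0.81 ± 0.09, adjusted p = 7e-07). It was at 20.1, 19.5 and 17.6 CPM in labelled knockout and 74.1, 75.2 and 75.4 CPM in R554Q, so the 4 groups did not overlap. Gclm (ENSMUSG00000028124, chr3:122245557-122269984, plus strand), whose promoter core is shown above, stood at 64.1, 59.3 and 59 CPM in D29H and 33.3, 39.1 and 35.7 CPM in wild type (0.75 ± 0.09, adjusted p = 1.8e-06). It was at 30, 28.1 and 28.7 CPM in labelled knockout and 97.2, 106 and 122 CPM in R554Q. For both ligase subunits D29H lay between wild type and R554Q. Gsr, glutathione reductase, rose by 0.38 ± 0.09 (adjusted p = 0.00249). Later or side steps went the other way: Gss, glutathione synthetase, fell by 0.59 ± 0.09, and Ggct, which breaks down gamma-glutamyl peptides, fell by 0.73 ± 0.17. Gss was also lower in labelled knockout than in wild type, by -0.37, and did not pass between D29H and labelled knockout (-0.22, adjusted p = 0.225).

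The glutathione transferases, which attach glutathione to reactive compounds, split in both directions, with 6 of 15 tested members higher and 3 lower. Their sequences are alike and reads shared between copies may have been divided between them, so single values are uncertain. Gsta4 (ENSMUSG00000032348, chr9:78191966-78209348, plus strand), which clears lipid peroxidation products, had the clearest rise, at 36.2, 30.8 and 28 CPM in D29H against 6.3, 7.98 and 5.91 CPM in wild type. Its log2 fold change was 2.23 ± 0.13 (adjusted p = 1.8e-11), and the labelled knockout stood at 3.33 ± 0.298 CPM and R554Q at 61.8 ± 9.7 CPM. Gsta1, counted among the 6, stood at 1.33, 1.69 and 1.62 CPM in D29H and 0.284, 0.203 and 0 CPM in wild type, where reads were too few for a usable fold. Mgst2 rose by 1.29 ± 0.28, Gstm1 by 0.70 ± 0.12 and Mgst1 by 0.69 ± 0.09. Mgst1, a membrane transferase whose promoter core is shown above, stood at 33.4, 34.1 and 35.1 CPM in D29H, 20.3, 22 and 21.4 CPM in wild type, 7.94 ± 1.41 CPM in labelled knockout and 51.3 ± 2.19 CPM in R554Q. Gstm2 rose by 0.37 ± 0.12, a call lost without D29H replicate 1 (adjusted p = 0.0583), wild-type replicate 1 (0.0751) or wild-type replicate 3 (0.0676).

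The transferases that were lower in D29H were Mgst3 (-0.70 ± 0.09), Gsto1 (-0.63 ± 0.10) and Gstm5 (-0.52 ± 0.12). Gsto1, which overlaps Wdr96, stood at 657, 512 and 593 CPM in D29H and 884, 910 and 928 CPM in wild type, and at 585 ± 62.9 CPM in labelled knockout and 938 ± 71.2 CPM in R554Q. D29H and labelled knockout thus shared a level, with a log2 difference of 0.00 between them (adjusted p = 0.989), and so did wild type and R554Q within their spread. Gstp1, an abundant transferase, did not pass, at 135 ± 21.8 CPM in D29H and 121 ± 0.823 CPM in wild type (0.15, 95% interval -0.05 to 0.36). Without D29H replicate 2 it passed, at 0.25 and an adjusted p of 0.0414.

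The thioredoxin branch, which reduces oxidised proteins and peroxiredoxins, had 3 of 6 members higher and 1 lower. Srxn1, sulfiredoxin (ENSMUSG00000032802, chr2:152105516-152111376, plus strand), stood at 120, 114 and 118 CPM in D29H, 60.8, 57.7 and 59.4 CPM in wild type, 36.8, 37.4 and 38.2 CPM in labelled knockout and 307, 298 and 298 CPM in R554Q. The replicates were tight and the 4 groups were separate, with a log2 fold change of 0.99 ± 0.08 (adjusted p = 8.8e-09). Txnrd1, thioredoxin reductase (ENSMUSG00000020250, chr10:82859206-82897724, plus strand), stood at 451, 446 and 435 CPM in D29H and 313, 311 and 318 CPM in wild type, a smaller rise of 0.50 ± 0.08 (adjusted p = 0.00011). It was at 178, 192 and 222 CPM in labelled knockout and 738, 755 and 820 CPM in R554Q, again with no overlap. Glrx, glutaredoxin, rose by 0.52 ± 0.12, but stood at 12.8 ± 1.24 CPM in labelled knockout and 12.6 CPM in D29H, above both Keap1 groups (8.8 ± 0.978 CPM in wild type, 9.91 ± 1.78 CPM in R554Q).

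Of the 2 peroxiredoxins in the list Prdx6 was lower and Prdx1 did not pass. Prdx6 fell by 0.43 ± 0.09 (adjusted p = 0.00099), at 157 ± 16.2 CPM in D29H and 211 ± 11.5 CPM in wild type, although it was higher in D29H than in labelled knockout (109 ± 4.05 CPM) by 0.53 (adjusted p = 0.00527). Prdx1, whose core is shown above, stood at 715, 652 and 586 CPM in D29H and 569, 640 and 527 CPM in wild type, and the ranges overlapped. Its log2 fold change was 0.17 with a 95% interval of -0.04 to 0.38, and 0.28 with an adjusted p of 0.00626 when offsets for GC content and gene length were used.

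**Figure D2:**
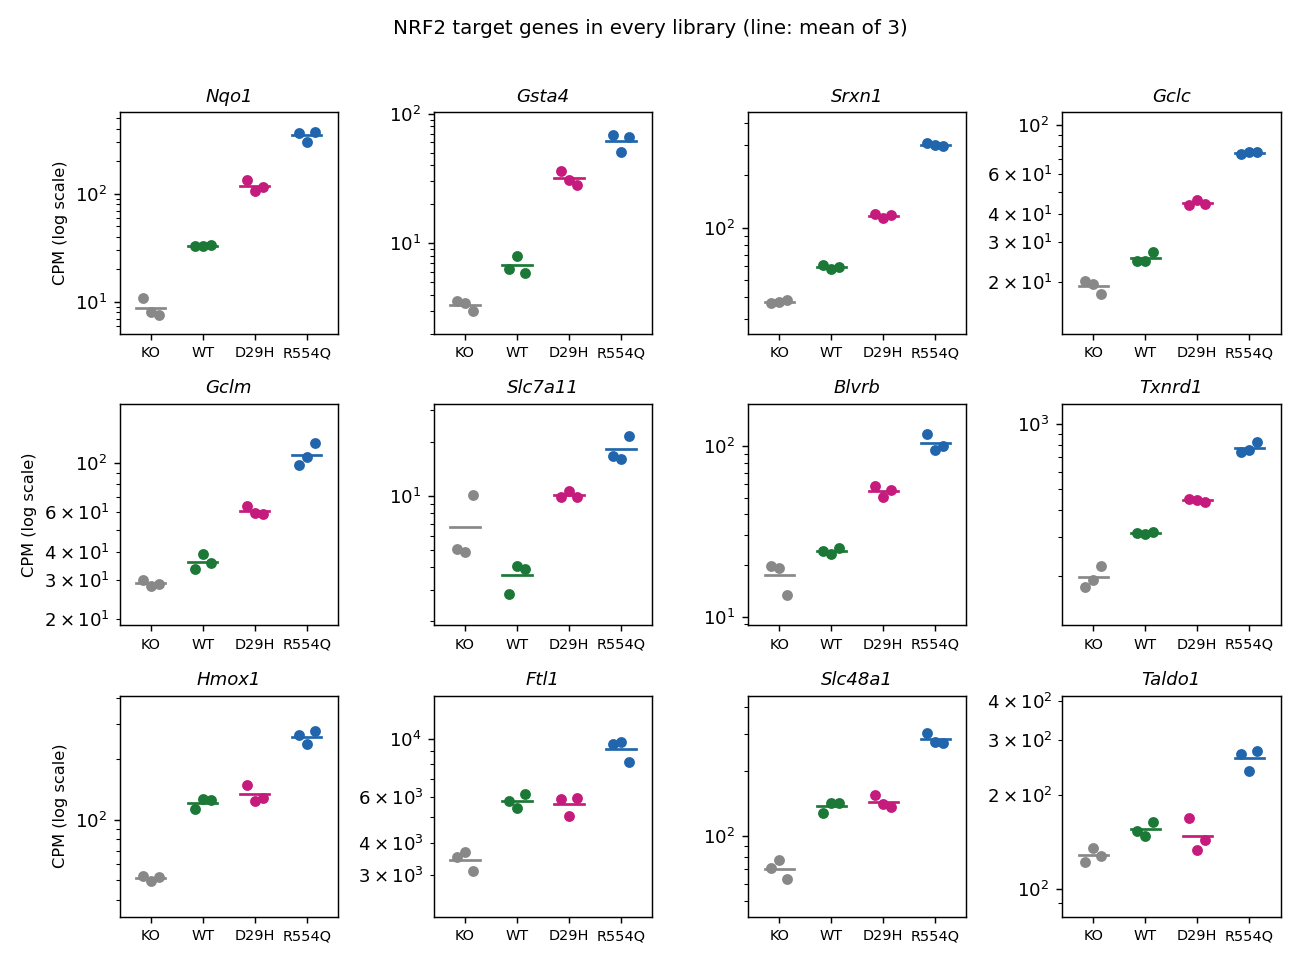
Points are CPM of 12 NRF2 target genes (log axis, with its own range in each panel) in the 3 libraries of each group, with a line at the group mean: KO is the labelled Nrf2 knockout, WT is Keap1 wild type. In the upper 8 panels the D29H points lie above every wild-type point and below every R554Q point; in the lower row D29H and wild type overlap for Hmox1, Ftl1, Slc48a1 and Taldo1.

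Among enzymes that detoxify quinones, carbonyls and aldehydes, 6 of 14 were higher and 3 lower. Nqo1, the quinone reductase used as the standard readout of NRF2 (ENSMUSG00000003849, chr8:107388225-107403206, minus strand), stood at 134, 107 and 115 CPM in D29H and at 32.9, 33.1 and 33.5 CPM in wild type. It was at 10.8, 8.12 and 7.61 CPM in labelled knockout and 369, 304 and 378 CPM in R554Q. No group overlapped another, and the D29H level was 3.57-fold the wild-type level (log2 fold change 1.84 ± 0.09, 95% interval 1.64 to 2.03, adjusted p = 1.8e-12). Aox1, an aldehyde oxidase, rose by 1.06 ± 0.17, from 4.07 ± 0.619 to 8.45 ± 1.36 CPM. Esd, esterase D, rose by 0.51 ± 0.09, at 906, 791 and 869 CPM in D29H and 597, 620 and 589 CPM in wild type, with 310 ± 31.6 CPM in labelled knockout and 1169 ± 80.5 CPM in R554Q.

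Cbr3, a carbonyl reductase, rose by 0.36 ± 0.11, and Ptgr1, which reduces prostaglandin and other enones, rose by 0.35 ± 0.09. The Cbr3 call was lost without D29H replicate 3 (adjusted p = 0.107). Adh7 rose by 0.53 ± 0.17, a call lost without D29H replicate 1 (0.122) or wild-type replicate 1 (0.0814). Of the aldo-keto reductases Akr1b8 fell by 0.44 ± 0.10 (adjusted p = 0.00149) and Akr1b3, aldose reductase, fell by 0.33 ± 0.10, while Akr1b10 did not pass (-0.04, interval -0.26 to 0.18). The Akr1b3 call was lost without D29H replicate 2 (0.0922), D29H replicate 3 (0.0582) or wild-type replicate 3 (0.0767). Aldh1a1, a retinaldehyde dehydrogenase at 0.993 ± 0.145 CPM in D29H and 1.84 ± 0.534 CPM in wild type, fell by 0.88 ± 0.30, and its call was lost without D29H replicate 2 (0.065), D29H replicate 3 (0.0925), wild-type replicate 2 (0.135) or wild-type replicate 3 (0.0931).

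Heme and iron handling held 3 members of 9 that were higher, none that was lower, and several close to wild type. Hmox1, heme oxygenase (ENSMUSG00000005413, chr8:75093591-75100596, plus strand), stood at 149, 124 and 128 CPM in D29H and 113, 126 and 125 CPM in wild type. It was at 52.3, 49.4 and 52.2 CPM in labelled knockout and 264, 236 and 275 CPM in R554Q. The D29H and wild-type ranges overlapped, and the log2 fold change of 0.14 had a 95% interval of -0.05 to 0.32, which lies below the whole interval of Nqo1. Hmox1 was lower in labelled knockout than in wild type by -1.25 (adjusted p = 8.2e-09) and higher in D29H than in labelled knockout by 1.38 (adjusted p = 6.3e-10).

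Ftl1, the ferritin light chain, showed the same picture at 5623 ± 492 CPM in D29H and 5778 ± 343 CPM in wild type (-0.04, 95% interval -0.25 to 0.17), with 3444 ± 297 CPM in labelled knockout and 9151 ± 866 CPM in R554Q. The sign for Ftl1 turned without D29H replicate 2 or wild-type replicate 3, and ferritin genes have many processed copies. Slc48a1, a heme transporter that overlaps Hdac7, stood at 144 ± 9.69 CPM in D29H and 138 ± 7.77 CPM in wild type (0.07, interval -0.11 to 0.25). Blvrb, a biliverdin reductase, rose instead by 1.17 ± 0.09 (adjusted p = 4.8e-09), at 58.8, 50.1 and 55.1 CPM in D29H and 24.4, 23.4 and 25.1 CPM in wild type. Slc40a1, the iron exporter ferroportin, rose by 1.62 ± 0.23, from 1.82 ± 0.682 to 5.64 ± 0.908 CPM. In labelled knockout Blvrb stood at 17.5 ± 3.6 CPM and Slc40a1 at 0.715 ± 0.1 CPM, both lower than in wild type (adjusted p = 0.0109 and 0.00728). Fth1, the ferritin heavy chain, was called at 0.26 ± 0.10 (adjusted p = 0.0483), and the call was lost on leaving out any library other than D29H replicate 3, with adjusted p up to 0.163, and also with limma (0.0578) and with all 12 libraries in 1 fit (0.0629). Tfrc, the transferrin receptor, which takes up iron, had a log2 fold change of -0.22 (adjusted p = 0.101), and fell by 0.35 with an adjusted p of 0.00225 without D29H replicate 1. Tfrc went the other way in labelled knockout, at 136 ± 22.4 CPM, higher than in wild type by 0.51 (adjusted p = 0.00242), and was lower in D29H than in labelled knockout by -0.73 (adjusted p = 8.7e-04).

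NADPH-producing enzymes supply reducing power to these pathways, and 1 of 6 was higher and 1 lower. Pgd, of the pentose phosphate pathway, rose by 0.46 ± 0.09 (adjusted p = 0.00027), at 198, 177 and 196 CPM in D29H and 133, 135 and 146 CPM in wild type. Me1, malic enzyme, fell by 0.54 ± 0.11 (adjusted p = 0.00056), at 101, 83.8 and 72 CPM in D29H and 111, 140 and 122 CPM in wild type. G6pdx, the entry enzyme of the same pathway as Pgd, stood at 35.3 ± 3.81 CPM in D29H and 36.9 ± 3.15 CPM in wild type (-0.06, interval -0.27 to 0.14), and overlaps Ikbkg. Taldo1, transaldolase, stood at 149 ± 17.9 CPM in D29H and 156 ± 8.31 CPM in wild type (-0.07, interval -0.26 to 0.13). In R554Q these genes were at 320 ± 24.7 CPM for Pgd, 146 ± 16.1 CPM for Me1, 58.7 ± 8.14 CPM for G6pdx and 262 ± 21 CPM for Taldo1, and for G6pdx and Taldo1 every R554Q library was above every D29H library. The signs for G6pdx and Taldo1 turned on leaving out D29H replicate 3 and D29H replicate 2 respectively.

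Efflux pumps of the ABC family, which export conjugates, had 4 of 5 tested members higher and none lower. Abcc5 rose by 0.78 ± 0.11 (adjusted p = 2e-05), at 108, 164 and 147 CPM in D29H and 85.7, 82.6 and 76.4 CPM in wild type, and R554Q stood at 103 ± 6.71 CPM, within the D29H range or below it. Abcc1 rose by 0.55 ± 0.09 (adjusted p = 0.00011), with 180 ± 19.4 CPM in D29H, 123 ± 7.62 CPM in wild type and 227 ± 3.88 CPM in R554Q. Abcc4 rose by 0.41 ± 0.13, a call lost without D29H replicate 3 (adjusted p = 0.0841), wild-type replicate 1 (0.116) or wild-type replicate 3 (0.0617). Abcb1b rose by 0.30 ± 0.10, lost without D29H replicate 2 (0.0916), wild-type replicate 1 (0.0969) or wild-type replicate 3 (0.0944), and stood at 29.4 ± 2.56 CPM in labelled knockout, near the 27.9 ± 2.13 CPM of D29H.

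Of the other NRF2-linked genes 3 of 9 were higher and 1 lower. Osgin1, an oxidative stress-induced growth inhibitor, rose by 1.53 ± 0.24 (adjusted p = 4.9e-05), from 1.86 ± 0.854 CPM in wild type to 5.42 ± 0.8 CPM in D29H, with 1.69 ± 0.683 CPM in labelled knockout. Lrp8, a lipoprotein receptor, rose by 0.75 ± 0.10, and Slc6a9, a glycine transporter that overlaps B4galt2, rose by 0.56 ± 0.13. Ptgs1, a cyclooxygenase, fell by 0.64 ± 0.10, and stood at 16.9 ± 0.826 CPM in D29H and 16.6 ± 1.9 CPM in labelled knockout against 26.3 ± 1.77 CPM in wild type and 27 ± 4.27 CPM in R554Q. Sqstm1, the autophagy receptor p62, had a log2 fold change of -0.24 at an adjusted p of 0.0505, and passed the threshold in 7 alternatives, as low as 0.00106 without D29H replicate 1. Cat, catalase, had 0.22 (interval 0.00 to 0.43, adjusted p = 0.107), and passed without D29H replicate 2 (0.0499) and with the GC content and length offsets (0.0318).

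Outside the NRF2 targets, most macrophage markers and most interferon-stimulated genes were higher in D29H. Of 13 macrophage markers 12 were higher in D29H and none lower, with a median of 0.98 on the log2 scale. Csf1r, the receptor for macrophage colony-stimulating factor, stood at 17.3, 18.4 and 17.2 CPM in D29H and 6.63, 7.17 and 8.11 CPM in wild type (1.27 ± 0.12, adjusted p = 6.6e-08). It overlaps Hmgxb3, whose reads could be shared. Itgam rose by 1.33 ± 0.20, Tyrobp by 1.31 ± 0.17 and the complement gene C1qb by 1.21 ± 0.14. The labelled knockout held 18.8 ± 0.577 CPM of Csf1r and 16.3 ± 1.52 CPM of C1qb, close to the 17.6 ± 0.65 and 17.3 ± 3.38 CPM of D29H.

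The summed level of the 13 macrophage markers was 191 to 220 CPM in D29H, 169 to 212 CPM in labelled knockout, 117 to 129 CPM in wild type and 87.0 to 101 CPM in R554Q. No marker of the list was at 0 in any library, and the lowest was Aif1 with 2 to 15 reads per library. Both cultures with the Nrf2 allele were thus higher than both with the Keap1 allele. Of the 13 markers 11 were higher and none lower in labelled knockout than in wild type, and none passed in either direction between D29H and labelled knockout in edgeR's test, DESeq2 or limma. There the median was -0.02, and 2 were lower at an unadjusted p under 0.05. In bulk RNA a larger share of a cell type and more RNA per cell cannot be told apart, here or for the other markers.

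Of 19 tested interferon-stimulated genes 16 were higher in D29H and none lower, with a median of 1.16. Mx2, an antiviral GTPase, stood at 0.961, 0.934 and 1.08 CPM in D29H and 0.0473, 0.203 and 0.107 CPM in wild type, where reads were too few for a usable fold. Isg15, a ubiquitin-like modifier, stood at 11.4, 3.78 and 6.71 CPM in D29H and 1.99, 1.98 and 1.61 CPM in wild type (1.96 ± 0.29, adjusted p = 2.3e-05). Replicate 1 of D29H was high, and the groups did not overlap. Rtp4 rose by 1.89 ± 0.33 and Xaf1 by 1.85 ± 0.29. In labelled knockout Isg15 stood at 4.57 ± 1.17 CPM and Rtp4 at 2.26 ± 0.171 CPM, and 9 of 17 members were higher and none lower there than in wild type. Between D29H and labelled knockout 2 of 20 were higher and none lower, with a median of 0.37. Most of these genes were at low levels, and the number called higher was 7 among genes with a mean count of at least 50. Macrophage markers moved with this list between D29H and wild type, and their part in it was not tested.

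Among chemokines and cytokines 4 of 10 tested members were higher and 2 lower. Cxcl1 stood at 14.3, 12.5 and 13.4 CPM in D29H and 3.22, 3.46 and 2.47 CPM in wild type (2.13 ± 0.15, adjusted p = 6.7e-10), and at 9.83 ± 0.252 CPM in labelled knockout. Cxcl5, a related neutrophil attractant, stood at 55.9, 62 and 59.5 CPM in D29H and 15.3, 16.3 and 13.1 CPM in wild type (1.99 ± 0.10, adjusted p = 1.6e-12), and at 43.3 ± 3.46 CPM in labelled knockout. Both were low in R554Q, at 3.89 ± 0.724 CPM for Cxcl1 and 21.1 ± 2.17 CPM for Cxcl5. They also passed between D29H and labelled knockout, each by 0.45, with adjusted p of 0.0387 for Cxcl1 and 0.0117 for Cxcl5. The monocyte attractants Ccl7 and Ccl2 rose by 0.54 ± 0.09 and 0.30 ± 0.08. The cytokine genes Il11 and Il6 fell by 0.82 ± 0.14 and 0.94 ± 0.29, and the Il6 call was lost without D29H replicate 3 (adjusted p = 0.0935).

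Of 23 proliferation genes 15 were higher in D29H and none lower, with a median of 0.36. Mki67, a marker of cycling cells, stood at 90.1, 131 and 110 CPM in D29H and 64, 74.1 and 64.2 CPM in wild type (0.71 ± 0.11, adjusted p = 3.6e-05). The mitotic genes Plk1, Aurka and Cdc20 rose by 0.70 ± 0.08, 0.64 ± 0.10 and 0.55 ± 0.09, Cdc20 overlapping Elovl1. The mean level of Plk1 was higher still in labelled knockout, with 79.7 ± 9.63 CPM of Plk1 against 65.6 ± 1.99 CPM in D29H and 40.3 ± 1.31 CPM in wild type. In labelled knockout against wild type 22 of 23 were higher and none lower, and in D29H against labelled knockout none was higher and 8 were lower.

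Contractile genes of smooth muscle and myofibroblasts went the other way, 9 of 10 tested lower and none higher, with a median of -0.69. Acta2, smooth muscle actin, stood at 5075, 3996 and 3832 CPM in D29H and 7023, 7467 and 7491 CPM in wild type, and fell by 0.77 ± 0.11 (adjusted p = 2e-05). Myh11, smooth muscle myosin, fell by 1.15 ± 0.10 (adjusted p = 2.4e-08), Cnn1, calponin, by 0.87 ± 0.10 and Tagln, transgelin, by 0.76 ± 0.11. The labelled knockout was also low, with 16.4 ± 2.3 CPM of Myh11 against 20.5 ± 2.42 CPM in D29H, 45.6 ± 2.97 CPM in wild type and 54.1 ± 6.08 CPM in R554Q. Of the 10 genes 8 were lower and none higher in labelled knockout than in wild type, and none passed between D29H and labelled knockout in edgeR's test, DESeq2 or limma, with 1 in each direction at an unadjusted p under 0.05.

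**Figure D3:**
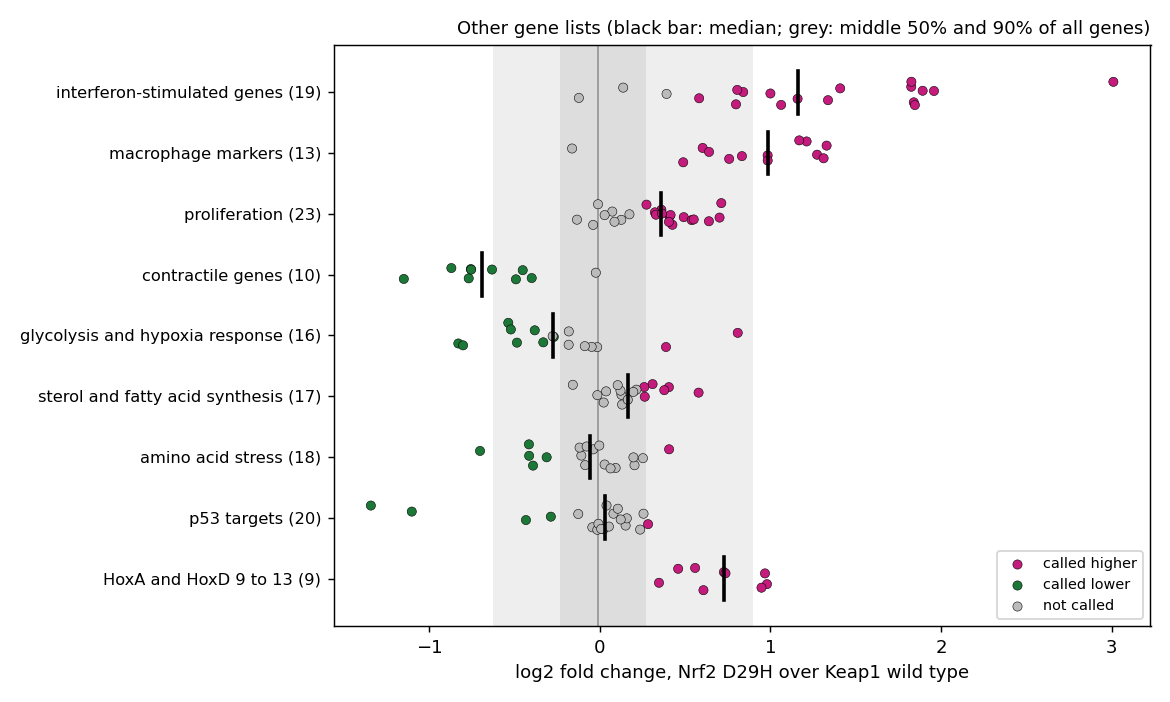
Each point is a gene of a list other than the NRF2 targets, placed by its log2 fold change of Nrf2 D29H over Keap1 wild type (x axis), with the number tested in brackets; colour shows the call at an adjusted p under 0.05. Interferon-stimulated genes and macrophage markers lie mostly to the right, with medians of 1.16 and 0.98, and contractile genes lie to the left with a median of -0.69.

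Of 39 tested Hox genes, which mark position along the body and limb axes, 14 were higher in D29H and 1 lower. All 9 tested genes of the HoxA and HoxD clusters numbered 9 to 13 were higher, with a median of 0.73, and 1 of 9 numbered 1 to 8 was higher and none lower, with a median of 0.16. The difference between these sets was not tested. The count of 9 was 8 with DESeq2, limma or the GC content and length offsets, and 7 or 8 when any 1 library was left out. Hoxa9 stood at 30.1, 33.6 and 34 CPM in D29H and 17.6, 15.1 and 17.3 CPM in wild type (0.97 ± 0.10, adjusted p = 3.3e-07). Hoxd13, at the distal end of its cluster, stood at 102, 80.9 and 85.1 CPM in D29H and 52.2, 51.2 and 57.4 CPM in wild type (0.74 ± 0.09, adjusted p = 4.4e-06). It was at 109 ± 2.22 CPM in labelled knockout and 53.5 ± 0.334 CPM in R554Q, so both groups from Nrf2 cells were above both from Keap1 cells.

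In the HoxC cluster Hoxc12 rose by 1.24 ± 0.23 and Hoxc11 by 0.97 ± 0.20, both at levels under 5 CPM, and Hoxc8 fell by 0.54 ± 0.10, from 35.5 ± 4 to 24.4 ± 1.25 CPM. Hoxd10 rose by 0.98 ± 0.18 and Hoxd12 by 0.95 ± 0.20. For the HoxA and HoxD genes 9 to 13, 8 of 9 were higher in labelled knockout than in wild type and none passed between D29H and labelled knockout in edgeR's test, DESeq2 or limma, with 2 in each direction at an unadjusted p under 0.05. Neighbouring Hox genes overlap, and reads of Hoxc8 and Hoxc5 on the same strand could be shared.

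**Figure D4:**
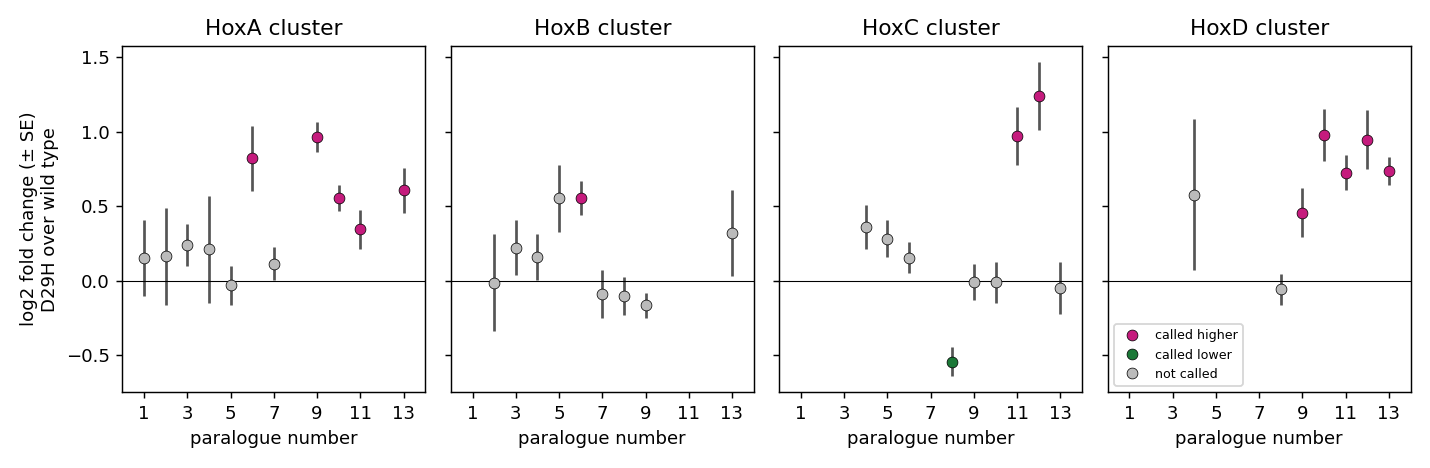
Points are log2 fold changes of Nrf2 D29H over Keap1 wild type with bars of ± SE (y axis) for the protein-coding Hox genes tested, by paralogue number (x axis) in each of the 4 clusters; colour shows the call at an adjusted p under 0.05. In HoxA and HoxD all 9 genes numbered 9 or above are called higher in this edgeR fit, against 8 with DESeq2 or limma, and Hoxc8 is called lower.

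Genes of glycolysis and the hypoxia response had 8 of 16 members lower and 2 higher, with a median of -0.27. Ldha, lactate dehydrogenase, stood at 1224, 818 and 930 CPM in D29H and 1350, 1436 and 1479 CPM in wild type, and fell by 0.52 ± 0.12 (adjusted p = 0.00156). Aldoa, aldolase, fell by 0.54 ± 0.11 and Ak4, a mitochondrial adenylate kinase, by 0.80 ± 0.11 (adjusted p = 1.4e-05). Here the labelled knockout was not low: Ldha stood at 1460 ± 59.1 CPM and Ak4 at 16.9 ± 1.33 CPM, against 1422 ± 65.4 and 16.8 ± 0.984 CPM in wild type. In R554Q they stood at 1062 ± 150 CPM for Ldha and 11.4 ± 0.197 CPM for Ak4, so both groups given Cre virus were low. Ankrd37 fell by 0.83 ± 0.31, overlaps the more highly counted Ufsp2, and its call was lost without D29H replicate 1 (adjusted p = 0.0958) or 3 (0.0779), without wild-type replicate 1 (0.103) or 2 (0.138), and with DESeq2 (0.0659). Car9, a carbonic anhydrase that overlaps Gm12454, and Vegfa, a growth factor for vessels, rose by 0.81 ± 0.21 and 0.39 ± 0.10. The Vegfa call was lost without D29H replicate 3 (adjusted p = 0.0506). No member of the list passed in labelled knockout against wild type in edgeR's test, DESeq2 or limma, and 1 was lower at an unadjusted p under 0.05.

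Amino acid stress genes, targets of ATF4, had 5 of 18 lower and 1 higher, with a median of -0.06. Asns, asparagine synthetase, stood at 79.1, 66.2 and 57.4 CPM in D29H and 105, 116 and 109 CPM in wild type, and fell by 0.70 ± 0.10 (adjusted p = 1.6e-05). It was at 84 ± 3.81 CPM in labelled knockout and 81.9 ± 8.22 CPM in R554Q, so wild type was the high group. The serine synthesis genes Psph and Phgdh fell by 0.41 ± 0.10 and 0.42 ± 0.12, and Nupr1, a stress cofactor, by 0.39 ± 0.09. The Phgdh call was lost without D29H replicate 2 (adjusted p = 0.0667) or 3 (0.055), without wild-type replicate 3 (0.0641), and with DESeq2 (0.122). Without D29H replicate 3 the list had 3 members called lower. Sesn2, a stress-induced sestrin, rose by 0.41 ± 0.09.

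Of 20 targets of p53, 1 was higher and 4 were lower, against 17.7% and 18.3% of all genes. Cdkn1a, the cell cycle inhibitor p21, stood at 452 ± 26 CPM in D29H and 493 ± 19.6 CPM in wild type (-0.13, interval -0.31 to 0.06), and Mdm2, the p53 ligase, at 314 ± 22.8 and 323 ± 15.5 CPM (-0.04, interval -0.23 to 0.14). The sign for Mdm2 turned without D29H replicate 3 and with the GC content and length offsets. Perp fell by 1.34 ± 0.09 and Pmaip1 fell by 1.10 ± 0.09, both of which promote cell death. Ccng1 fell by 0.43 ± 0.10 and Plk2 fell by 0.29 ± 0.08. The Plk2 call was lost without wild-type replicate 3 (adjusted p = 0.0537). Perp stood at 40.2 ± 1.61 CPM in labelled knockout and 39.4 ± 3.68 CPM in D29H, against 99.9 ± 6.49 CPM in wild type and 107 ± 8.31 CPM in R554Q. Dcxr was the member called higher (0.28 ± 0.09, adjusted p = 0.0234), a call lost without D29H replicate 1 (0.0809) or wild-type replicate 1 (0.0717) or 2 (0.0949), and with the GC content and length offsets (0.105).

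Sterol and fatty acid synthesis had 6 of 17 higher and none lower, with a median of 0.16. Scd2, a fatty acid desaturase, stood at 676, 693 and 678 CPM in D29H and 441, 464 and 465 CPM in wild type (0.58 ± 0.09, adjusted p = 3e-05). Lss and Dhcr7, of cholesterol synthesis, rose by 0.40 ± 0.08 and 0.38 ± 0.10. Labelled knockout stood at 728 ± 25.1 CPM for Scd2 and R554Q at 491 ± 40.6 CPM, and 11 of 17 members were higher and none lower in labelled knockout than in wild type.

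Of 33 tested collagens 14 were higher and 4 lower, with a median of 0.27. Col3a1, collagen III, stood at 941, 830 and 958 CPM in D29H and 497, 522 and 546 CPM in wild type (0.80 ± 0.09, adjusted p = 1.1e-06), with 1047 ± 66.3 CPM in labelled knockout and 478 ± 14.4 CPM in R554Q. Of the fibroblast markers Lum, Pdgfrb and Postn rose by 0.76 ± 0.21, 0.45 ± 0.09 and 0.38 ± 0.09, and Dcn, Vim and Thy1 fell by 0.55 ± 0.12, 0.40 ± 0.10 and 0.28 ± 0.10. The Lum call was lost without wild-type replicate 3 (adjusted p = 0.0525). The Thy1 call was lost without D29H replicate 2 (0.116) or 3 (0.0545), or wild-type replicate 1 (0.0696) or 3 (0.119). Proteoglycans had 4 of 9 higher and 1 lower.

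Among matrix proteases and their inhibitors 3 of 13 were higher and 6 lower. Mmp2, gelatinase A, stood at 84.6, 72.5 and 79.6 CPM in D29H and 145, 157 and 168 CPM in wild type, and fell by 0.99 ± 0.09 (adjusted p = 3.4e-08). Mmp10, a stromelysin, fell by 1.81 ± 0.32 and Mmp13, a collagenase, by 1.04 ± 0.18, and the inhibitor Timp2 fell by 0.50 ± 0.09. Adamts5, an aggrecanase, rose by 0.60 ± 0.09. Labelled knockout held 77.1 ± 2.75 CPM of Mmp2, and R554Q 173 ± 11.6 CPM.

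Imprinted growth genes, expressed from 1 parental copy, had 3 of 13 higher and 5 lower. Mest, which overlaps Copg2, stood at 19.8, 16.5 and 16.8 CPM in D29H and 8.52, 9.76 and 10.4 CPM in wild type (0.89 ± 0.12, adjusted p = 9.9e-06). Meg3, a noncoding RNA, stood at 620, 1058 and 980 CPM in D29H and 638, 473 and 480 CPM in wild type (0.74 ± 0.15), and the ranges overlapped. Cdkn1c fell by 0.65 ± 0.10, Dlk1 fell by 0.60 ± 0.10 and Igf2 fell by 0.34 ± 0.09. Meg3 and Dlk1 also passed between D29H and labelled knockout, at 0.78 (adjusted p = 0.00505) for Meg3 and -0.46 (adjusted p = 0.0125) for Dlk1.

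Markers of other cell types the cultures could hold were mostly at low counts. Exceptions included Krt19, Tubb3, Sox9 and Col2a1, with at least 701, 553, 500 and 287 reads in every library. For skeletal muscle only the actin Acta1 was tested, which fell by 1.75 ± 0.10 (adjusted p = 7.1e-12), from 334 ± 17.9 to 98.9 ± 11.8 CPM, with 120 ± 6.44 CPM in labelled knockout and 297 ± 20.6 CPM in R554Q. Of 5 neural and Schwann markers 3 were lower and none higher: Sox10 fell by 1.95 ± 0.37, Ngfr fell by 1.70 ± 0.20 and Tubb3 fell by 0.38 ± 0.10. All 3 tested epithelial markers were lower, Krt8 by -1.36 ± 0.39, Krt18 by -1.30 ± 0.21 and Krt19 by -0.46 ± 0.12, while Epcam and Cdh1 had at most 6 and 11 reads in any library. The Krt8 call was lost without wild-type replicate 1 (adjusted p = 0.0651). Sox10 and Krt8 had few reads, at 0.315 to 0.890 and 0.320 to 0.810 CPM in D29H. In wild type they stood at 1.32 to 2.79 and 1.07 to 1.80 CPM, so the size of these 2 falls is uncertain. Summed epithelial markers ran from 33.4 to 51.4 CPM in D29H and 58.6 to 67.8 CPM in wild type, and summed neural markers from 40.6 to 51.1 CPM and 60.5 to 68.4 CPM. Cartilage markers had 3 of 4 tested higher and none lower, adipocyte markers 2 of 4 higher and 1 lower, and endothelial markers 1 of 3 higher. The endothelial gene called higher was Tek, with 8 to 39 reads per library over the 12 libraries. Pecam1 and Cldn5 had at most 6 and 2 reads in any library, whereas Kdr of the same list had 300 to 492.

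The 10 largest rises and the 10 largest falls were taken among called genes that code for protein, average 100 reads or more over the 6 libraries, reach 10 on average in both groups and have ranges that do not overlap. The rises were Gm8730, Gsta4, Rpl29, Cxcl1, Pxylp1, Fam129c, Cxcl5, Msi1, Nqo1 and Iqgap2. Of these, 2 were NRF2 targets, Gsta4 and Nqo1. Gm8730 stood at 1677, 1337 and 1401 CPM in D29H and 14.2, 15 and 16.6 CPM in wild type (6.59 ± 0.13, adjusted p = 3.6e-20), and at 1512 ± 180 CPM in labelled knockout and 17.6 ± 3.55 CPM in R554Q. Rpl29, a ribosomal protein gene, stood at 717 ± 70.8 CPM in D29H, 729 ± 64.3 CPM in labelled knockout, 158 ± 13.7 CPM in wild type and 168 ± 29.5 CPM in R554Q. Genes with near-identical copies, such as Gm8730 and Rpl29, are uncertain, since the way shared reads were counted is not given in the sources used here. Pxylp1, a phosphatase of proteoglycan synthesis, stood at 12.2 ± 1.65 CPM in D29H and 2.98 ± 0.498 CPM in wild type, and Iqgap2, a scaffold protein gene, at 20.5 ± 2.07 and 5.9 ± 0.241 CPM. Msi1, an RNA-binding protein gene, rose by 1.84 ± 0.17. Fam129c rose by 2.01 ± 0.21, and overlaps Pgls on the same strand.

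The falls described here were Pcna-ps2, Gm9825, Gm4737, Eif3j2, Uts2b, Lce1h, Gadd45gip1, Hist1h2ab and Hist1h3b. Pcna-ps2, named as a copy of Pcna, stood at 0.778, 0.667 and 1.13 CPM in D29H and 22.5, 28.8 and 23.1 CPM in wild type, and fell by 4.85 ± 0.18 (adjusted p = 4.3e-15). Uts2b, a urotensin gene, fell by 2.35 ± 0.15 and Lce1h, of the skin envelope, by 2.31 ± 0.17. For 17 of the 19 rises and falls named here, all but Gsta4 and Nqo1, labelled knockout lay nearer to D29H than to wild type, and R554Q nearer to wild type.

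**Figure D5:**
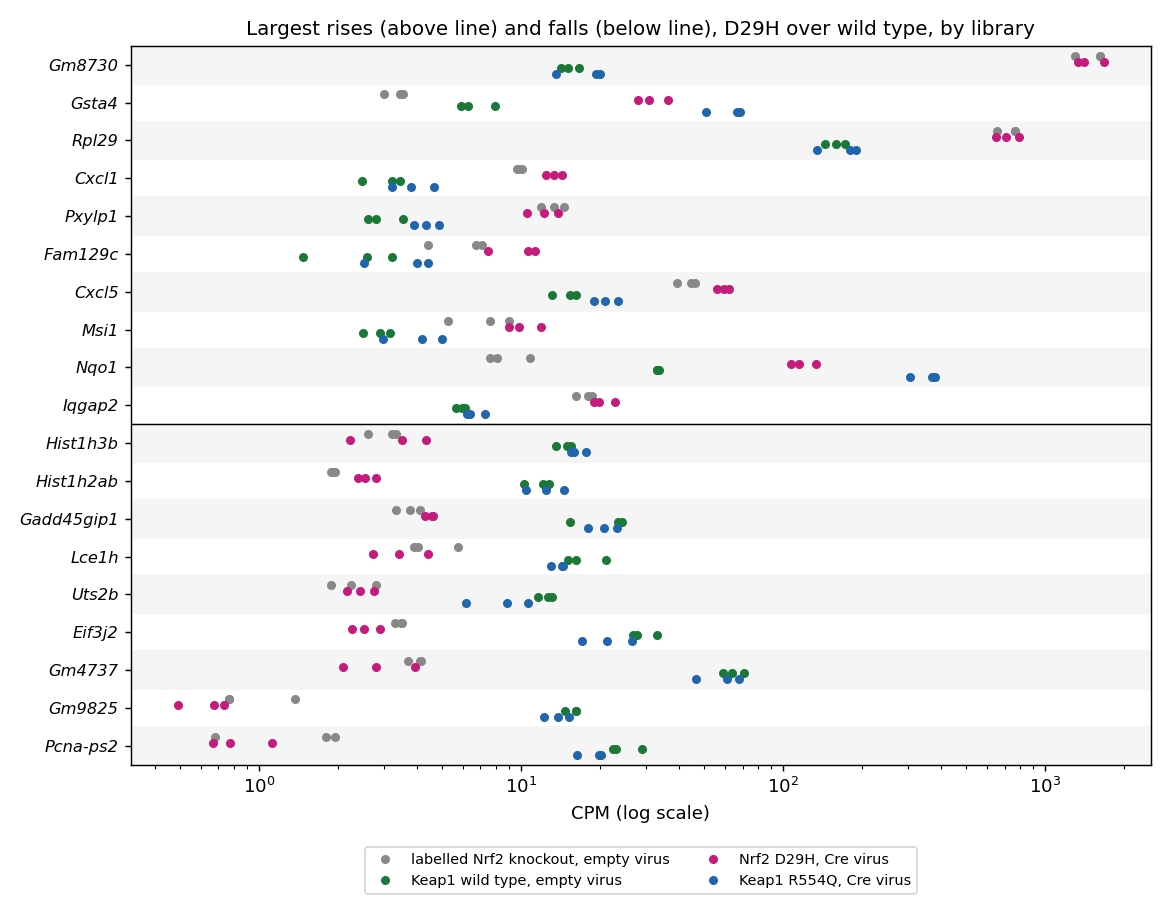
Points are CPM (log axis) in each of the 12 libraries for the largest rises (above the line) and falls (below it) named in the text, of Nrf2 D29H over Keap1 wild type. For most genes the 2 groups from Nrf2 cells lie together and apart from the 2 groups from Keap1 cells; for Gsta4 and Nqo1 the order is labelled knockout, wild type, D29H, R554Q.

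Replication-dependent and other histone genes, of which 35 of 62 could be tested, had 12 lower and 3 higher, with a median of -0.20. The number lower was 7 among genes with a mean count of at least 50. Hist1h2ab fell by 2.18 ± 0.16 and Hist1h3b by 2.13 ± 0.17. Hist1h2bq, called higher, stood at 7.65, 7.16 and 10.2 CPM in D29H and 4.97 ± 0.972 CPM in labelled knockout, against 0.0947, 0.203 and 0 CPM in wild type. So few wild-type reads give no usable fold. Histone genes are near-identical copies and most of their transcripts lack a poly(A) tail, so their counts depend on read assignment and library preparation. In labelled knockout against wild type 15 of 35 were lower and 3 higher.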

How the data were processed

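Libraries were made from total RNA of mouse embryonic fibroblasts with a NEBNext Ultra kit, per the labels' protocols. The submitters' processing notes name STAR, DESeq2 and mm10, with no version or role. Per the file headers, the deposited values used here are raw read counts of genes, in a table for the Nrf2 groups and another for the Keap1 groups. FPKM, group mean signal, log2 fold changes and p-values that the authors deposited beside them were not used here. Annotation, strand use and the counting of shared reads are not given in the sources used here. Of the gene identifiers 99.0% were found in GENCODE M21 (GRCm38), 99.9% of them at overlapping positions.

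Counts were joined on the gene identifier, which kept 20844 of 22114 and 21916 genes; 1270 and 1072 genes listed in 1 table were left out. They were filtered with filterByExpr, scaled by TMM factors over all 12 libraries and tested with the quasi-likelihood test of edgeR 4.0.16 in R 4.3.3 on the 6 libraries of a comparison, with Benjamini-Hochberg adjusted p under 0.05 as the call. The standard error is the log2 fold change over the root of the test statistic, and intervals are 95%. On counts simulated for D29H against wild type (14335 genes) 67, 67 and 66 genes were changed 1.5-fold, 2-fold and 4-fold. The test recovered 73.1%, 92.5% and 98.5% of these, with 6 false calls (3.30% of calls). Simulated counts were drawn independently at the fitted dispersion trend, with library sizes known to the test. The 3.30% is therefore not the false call rate of the real data. Counts of any 2 replicates differed beyond sampling noise (chi-square per degree of freedom 4.66 to 23.2), so all libraries were kept as separate. Promoter sequences are from RefSeq.

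The comparison, its members and the gene lists were chosen with earlier results of these data known. Named genes are Nfe2l2, Keap1 and members of the NRF2 lists; for each other list up to 4 called members with the largest change in each direction; and the 10 largest rises and falls under the limits given in the results. Some genes that this rule covers are not reported here. Exceptions chosen after their values were seen are Cdkn1a, Mdm2, Hoxd12, Hoxd13 and Ifi202b. The markers Col1a1, Aif1, Epcam, Cdh1, Pecam1, Cldn5 and Kdr also fall outside the rule and are named for their read counts. Alternatives were RLE and upper-quartile scaling, TMM over 6 libraries, other count filters, DESeq2 1.42.0, limma 3.58.1 with a prior count of 2, a fit of all 12 libraries, a replicate block, offsets for GC content and gene length (lowess span 0.3), leaving out each library and stricter thresholds.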

Additional observations from a re-analysis of the deposited data

Results flagged for a closer look

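Speer3 and Akr1c19 were listed in the Keap1 table only, so they entered no comparison with D29H. Speer3 had 212 reads over the 6 Keap1-table libraries, with 36, 37 and 33 in wild type. Akr1c19, an aldo-keto reductase gene, had 155 reads, with 32, 29 and 19 in wild type. The tables list only genes with at least 1 read in their own 6 libraries, so a gene listed in 1 table was not analysed here in the other group.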

How the results depend on the processing

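Under stricter calls the genes higher in D29H numbered 1605 at an adjusted p under 0.01 and 511 at 2-fold, those lower 1601 and 256, the NRF2 targets higher at 2-fold 9 and those lower 0. Leaving out each library in turn gave 1873 to 3069 higher and 1802 to 3363 lower genes, 25 to 31 NRF2 targets higher, 9 to 16 lower, and a median of 0.083 to 0.248 for those targets. Of the 5172 called genes 2905 were called in all 6 of these fits and 0 changed sign. Among genes with a mean count of at least 50, fewer genes tested, 7 interferon-stimulated genes were higher and 7 histone genes lower, and amino acid stress genes called lower ranged from 3 to 6 when 1 library was left out, with 3 without D29H replicate 3; the alternatives for lists other than the NRF2 targets were added after the data were seen, and the cause was not tested. Scaling by RLE, upper quartile or TMM over 6 libraries changed no call among the 150 genes examined. Over 2539 gene-by-setting values 2454 kept direction and side of the threshold, 62 lost the call, 14 gained one and 9 changed sign, all 9 in genes that had not passed. Those were Keap1 (-0.12 to 0.057 over fits without 1 library, above 0 without D29H replicate 2 or wild-type replicate 3), Ftl1 (-0.080 to 0.032, above 0 without either of the same libraries), G6pdx (-0.14 to 0.017, above 0 without D29H replicate 3), Taldo1 (-0.17 to 0.0032, above 0 without D29H replicate 2) and Mdm2 (0.0175 with GC content and length offsets, 0.0167 with the replicate block added to them, -0.10 to 0.0047 over fits without 1 library, above 0 without D29H replicate 3); the cause was not tested. Replicate numbers did not pair the libraries (correlations of same-numbered deviations -0.28, 0.066 and 0.11). With the replicate block 2341 genes were higher and 2486 lower, and of the genes named Aldh1a1 (adjusted p = 0.0517), Ankrd37 (0.0553) and Fth1 (0.0751) were not called. With the block and the offsets for GC content and length these were Aldh1a1 (0.0735), Ankrd37 (0.0586) and Dcxr (0.152), and 7 of the 9 HoxA and HoxD genes numbered 9 to 13 were called, against 8 with the block alone. Genes under the filter on low counts were not tested at this depth of 19661193 to 21832061 reads.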

Other observations

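Ifi202b, an interferon-inducible gene singled out after its values were seen, stood at 10.6, 9.92 and 7.25 CPM in D29H and 7.45, 5.95 and 5.47 CPM in labelled knockout, with 0, 0.0508 and 0 CPM in wild type and 0.0501, 0 and 0 CPM in R554Q. Both groups from Nrf2 cells were thus above both from Keap1 cells, whichever virus was given.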
